A study of Mus musculus with 5 samples.

Results

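Qk encodes QKI, an RNA-binding protein of the STAR family, and lies on mouse chromosome 17. Its probes were taken as those at file positions 9620000 to 9729999 of a chromosome 17 tiling array, which gave 523 of 387986 probes on that chromosome and 22 of 15383 windows of 5 kb. The stretch was chosen by measured values, the cDNA levels of these 5 arrays and their differences between groups, and so was its split into an exon-rich end and an intron stretch. Its levels and the differences between groups at Qk are therefore given as descriptions. Calls of a fit over the whole chromosome are printed for Qk windows beside the share of all windows called, and are no test of Qk. The groups were total RNA of the MEFF line (n = 2 arrays), polyA RNA of the MEFB line (n = 1) and polyA RNA of the MEFF line (n = 2). Both are spontaneously immortalised fibroblast lines from FVBN embryos of 12.5 days post coitum. MEFF has the genotype Thp/+ and MEFB +/Thp: each line carries the Thp deletion on 1 chromosome 17, on opposite parental copies, and the labels name no other difference along this chromosome. The labels place the deletion at 8.6 to 13.2 Mb of the mm9 build, between T and Sod2 and with the Igf2r cluster inside it. Qk falls in this interval, so by the labels each line retains 1 copy of Qk, from opposite parents, and each genotype is represented by a single line. The genomic DNA channel did not show a loss of this kind: given base composition, its log2 level in the interval differed from that of the rest of the chromosome by -0.04 and -0.05 on the MEFF total arrays, -0.06 on the MEFB array and -0.05 and -0.07 on the MEFF polyA arrays. At the Qk stretch it differed by -0.11 and -0.08, -0.0093, and 0.13 and -0.09 in the same groups. The genomic DNA on every array came from a line labelled with the deletion, so the drop given by a lost copy was not calibrated. These values therefore cannot decide whether the deletion is present. Double-stranded cDNA was hybridised in Cy3 against genomic DNA (input) of the same line in Cy5, with no dye swap. Such cDNA keeps no strand, so both strands were read together. A level below is log2(cDNA/input), set to 0 at the median of each array and averaged over the probes named.

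QKI binds RNA through a KH domain with flanking QUA regions and acts in splicing, in the export and stability of messenger RNA, and in the formation of circular RNAs. It is best known from the quaking viable mouse, whose oligodendrocytes make too little myelin, and it is also made in fibroblasts and vascular cells. Alternative splicing at the 3′ end of the gene gives proteins that share the RNA-binding part and differ in a short tail. The QKI-5 tail holds a nuclear localisation signal, while the other forms are found largely or partly in the cytoplasm. The 3′ exons of these forms are long, since most of each is 3′ untranslated region.

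No source used here gives the genome build of the array's positions. Blocks of probes were placed on NCBIM37 (the same sequence as mm9) by matching the input channel to the base composition of the genome, with no cDNA value used. All 11 blocks of 10 kb in the stretch were placed, with correlations between input and predicted input of 0.44 to 0.69. The shifts used, each read over 30 kb, ran from 777827 to 777856 bases. Shifts read from each block of 10 kb alone differed by at most 24 bases. The stretch then runs from 10397850 to 10507826 of NCBIM37 chromosome 17 and holds 96.1% of the annotated Qk gene, chr17:10399336-10512245 on the minus strand. The low end of the stretch is therefore the 3′ end of Qk. Exon 1 lies in the 4.42 kb beyond its high end, in a block placed less firmly (correlation 0.293) and accepted through its neighbour. Its 6 probes had levels of -0.11 and 0.00 in MEFF total RNA, -0.22 in MEFB polyA RNA and 0.13 and 0.38 in MEFF polyA RNA. With this placing, those values cannot be taken as the level of the first exon.

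The sequences below, read from NCBIM37 on the minus strand, are parts of Qk exons at their annotated positions. They were not used by themselves to identify Qk, which rests on the placing of blocks and the annotation. The first pair are the coding exons with the highest single probes, chr17:10475704-10475846 (143 bases) and chr17:10409025-10409324 (300 bases). Capitals mark the bases under the fully exonic probes, 50 in exon 2 and 100 in exon 6, as far as the placing fixes them.
Exon 2: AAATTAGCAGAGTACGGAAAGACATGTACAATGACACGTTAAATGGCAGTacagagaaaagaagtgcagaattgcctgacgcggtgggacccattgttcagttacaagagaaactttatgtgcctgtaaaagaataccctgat
Exon 6: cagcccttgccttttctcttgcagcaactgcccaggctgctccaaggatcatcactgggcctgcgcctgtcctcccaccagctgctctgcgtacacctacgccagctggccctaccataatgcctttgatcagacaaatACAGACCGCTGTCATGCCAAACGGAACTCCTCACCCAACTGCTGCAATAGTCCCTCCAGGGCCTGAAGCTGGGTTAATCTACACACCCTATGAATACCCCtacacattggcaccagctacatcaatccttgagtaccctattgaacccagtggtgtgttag
The next 3 show where the annotated transcripts Qk-202 and Qk-204 part after exon 6. In each, 20 bases of intron in lower case precede the exon in capitals, and the first and last run to the stop codon. The ends encode the tail of the QKI-7 form in Qk-202 (chr17:10408296-10408359) and of the QKI-5 form in Qk-204 (chr17:10406224-10406318 and chr17:10402480-10402516).
Qk-202, last coding bases: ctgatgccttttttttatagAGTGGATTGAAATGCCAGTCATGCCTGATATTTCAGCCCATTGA
Qk-204, exon 7: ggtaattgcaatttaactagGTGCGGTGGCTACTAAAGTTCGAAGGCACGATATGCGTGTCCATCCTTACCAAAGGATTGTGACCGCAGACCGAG
Qk-204, last coding bases: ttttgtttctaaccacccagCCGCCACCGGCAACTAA
The coding sequence is 975 bases in Qk-202 and 1023 bases in Qk-204. The 3′ exons measure 5285 bases in Qk-202 and 3161 bases in Qk-204, most of them past the stop codon.

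The cDNA signal had the shape of a long spliced gene on all 5 arrays. At the exon-rich end, the first 10 kb of the stretch with 42 probes, the level was 1.44 and 1.34 in MEFF total RNA, 3.10 in MEFB polyA RNA and 1.75 and 2.54 in MEFF polyA RNA. In the intron stretch, the 95 kb from file position 9635000 with 451 probes, it was 0.55 and 0.49 in MEFF total RNA, 0.64 in MEFB polyA RNA and 0.09 and 0.31 in MEFF polyA RNA. The exon-rich end was highest in MEFB, while the MEFF total arrays were lowest there and lay above both MEFF polyA arrays in the intron stretch.

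The difference between the exon-rich end and the intron stretch was 0.89 and 0.85 in MEFF total RNA (0.87 ± 0.03, SD, n = 2). It was 2.47 on the MEFB polyA array, and 1.66 and 2.23 in MEFF polyA RNA (1.94 ± 0.40, SD, n = 2). As ratios, the end stood 1.86-fold and 1.80-fold above the introns in MEFF total RNA, 5.53-fold in MEFB polyA RNA, and 3.16-fold and 4.69-fold in MEFF polyA RNA. The total RNA arrays thus had the smallest contrast and the MEFB array the largest. Under all 7 other ways of computing it on the same arrays, the total RNA value remained below the MEFF polyA mean, by 0.43 to 1.51, and the MEFB value above it, by 0.19 to 0.86.

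**Figure D1:**
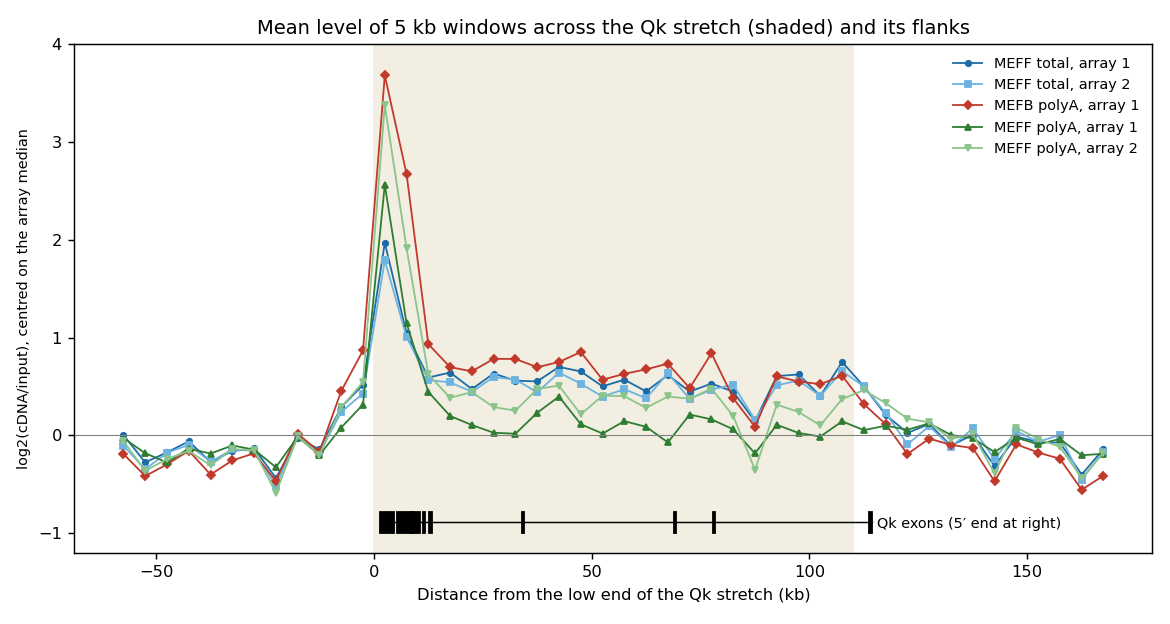
Mean log2(cDNA/input) of 5 kb windows (vertical axis, centred on each array's median) against the distance from the low end of the Qk stretch in kb, with 1 line per array. The shaded 110 kb hold the Qk probes, black boxes are the placed exons, and the windows at the low end peak at 1.97 and 1.79 in MEFF total RNA, 3.68 in MEFB polyA RNA and 2.56 and 3.37 in MEFF polyA RNA.

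The plot of windows along the stretch shows where the signal began and ended. The lowest window inside the stretch had 1.97 and 1.79 in MEFF total RNA, 3.68 in MEFB polyA RNA and 2.56 and 3.37 in MEFF polyA RNA. The window just outside it had 0.52 and 0.43, 0.87, and 0.32 and 0.54 in the same groups. At the 5′ side the change was smaller: the highest window inside had 0.75 and 0.66 in MEFF total RNA, 0.61 in MEFB polyA RNA and 0.14 and 0.37 in MEFF polyA RNA, and the one just outside had 0.50 and 0.50, 0.32, and 0.05 and 0.46. That outer window still holds the 5′ end of the gene, and on the MEFF polyA array 2 it was the higher of the pair.

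Farther out the signal was at or below the array median. Over 50 kb on the 3′ side, the mean level was -0.17 and -0.20 in MEFF total RNA, -0.26 in MEFB polyA RNA and -0.16 and -0.22 in MEFF polyA RNA. Over 50 kb on the 5′ side, it was -0.10 and -0.09 in MEFF total RNA, -0.24 in MEFB polyA RNA and -0.06 and -0.08 in MEFF polyA RNA. Of 20 windows of 5 kb in both flanks together, 4 were above 0 on each MEFF total array, 1 on the MEFB array, and 3 and 4 on the MEFF polyA arrays. Of the 19 windows of the intron stretch, all were above 0 on the MEFF total and MEFB arrays, and 16 and 18 on the MEFF polyA arrays.

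The probes placed wholly within exons 2 and 6 stood out. Only 1 probe was placed wholly within exon 2, which encodes part of the RNA-binding region. It read 4.31 and 4.41 in MEFF total RNA, 6.29 in MEFB polyA RNA and 5.43 and 6.50 in MEFF polyA RNA. As placed, this probe reaches the edge of the exon. Shifts of single blocks differed by up to 24 bases, and the shifts used ran from 777827 to 777856. The pair of probes in exon 6, just upstream of the alternative ends, averaged 3.55 and 3.36 in MEFF total RNA, 5.59 in MEFB polyA RNA and 4.66 and 5.70 in MEFF polyA RNA. At both exons, the total RNA arrays were below all polyA arrays, and the MEFB array lay between the MEFF polyA arrays. Exons 3 and 5 hold no probe, and exon 4 holds only 1 that runs past its edge, with 32 of its 50 bases in the exon.

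The 3′ exon of Qk-204, which ends the QKI-5 form, was the strongest part with several probes. Its 9 probes averaged 3.02 and 2.82 in MEFF total RNA, 5.65 in MEFB polyA RNA and 4.32 and 5.31 in MEFF polyA RNA. Every one of them exceeded all 180 probes of intron 1 on 4 arrays, and 8 of 9 did on MEFF total array 1. Set against the mean of intron 1, the exon stood 5.61-fold and 5.01-fold higher in MEFF total RNA, 35.8-fold in MEFB polyA RNA, and 19.7-fold and 34.3-fold in MEFF polyA RNA.

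The longer 3′ exon of Qk-202, which ends the QKI-7 form, was weaker and uneven. Its 26 probes averaged 0.97 and 0.95 in MEFF total RNA, 2.58 in MEFB polyA RNA and 1.09 and 1.87 in MEFF polyA RNA. Those above all intron 1 probes numbered 3 and 4 in MEFF total RNA, 20 in MEFB polyA RNA, and 11 and 14 in MEFF polyA RNA. On the MEFB array its probes ranged from 0.60 to 5.11 with a median of 2.40, against -0.18 to 3.61 and 0.42 to 3.86 on the MEFF polyA arrays. The MEFB value exceeded both MEFF polyA values at 21 of these 26 probes and at 7 of the 9 probes of the Qk-204 exon, against 35.6% of all probes of the chromosome. The exon also covers exon 7 of Qk-204, and the 1 probe there, at 2.09 and 1.89 in MEFF total RNA, 3.51 in MEFB polyA RNA and 3.25 and 3.86 in MEFF polyA RNA, reads both transcripts. The other probes of the exon lie in introns of Qk-204 and so also read its unspliced RNA. Against the mean of intron 1, the exon stood 1.36-fold and 1.37-fold higher in MEFF total RNA. It stood 4.27-fold higher in MEFB polyA RNA, and 2.10-fold and 3.17-fold in MEFF polyA RNA.

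Within each array, the Qk-204 exon lay above the Qk-202 exon by 2.04 and 1.87 in MEFF total RNA, by 3.07 in MEFB polyA RNA, and by 3.23 and 3.44 in MEFF polyA RNA. That is 4.13-fold and 3.66-fold, 8.39-fold, and 9.37-fold and 10.8-fold. The step was thus smallest in total RNA, and smaller in MEFB than on either MEFF polyA array. Different probes are compared here, and dividing by input removes only part of their unequal response. The Qk-202 probes also read unspliced Qk-204 RNA, so the step does not measure the ratio of the forms. Between the exons, the 1 probe off both read 0.43 and 0.52 in MEFF total RNA, 0.41 in MEFB polyA RNA and -0.43 and 0.11 in MEFF polyA RNA, which is near the level of the introns.

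**Figure D2:**
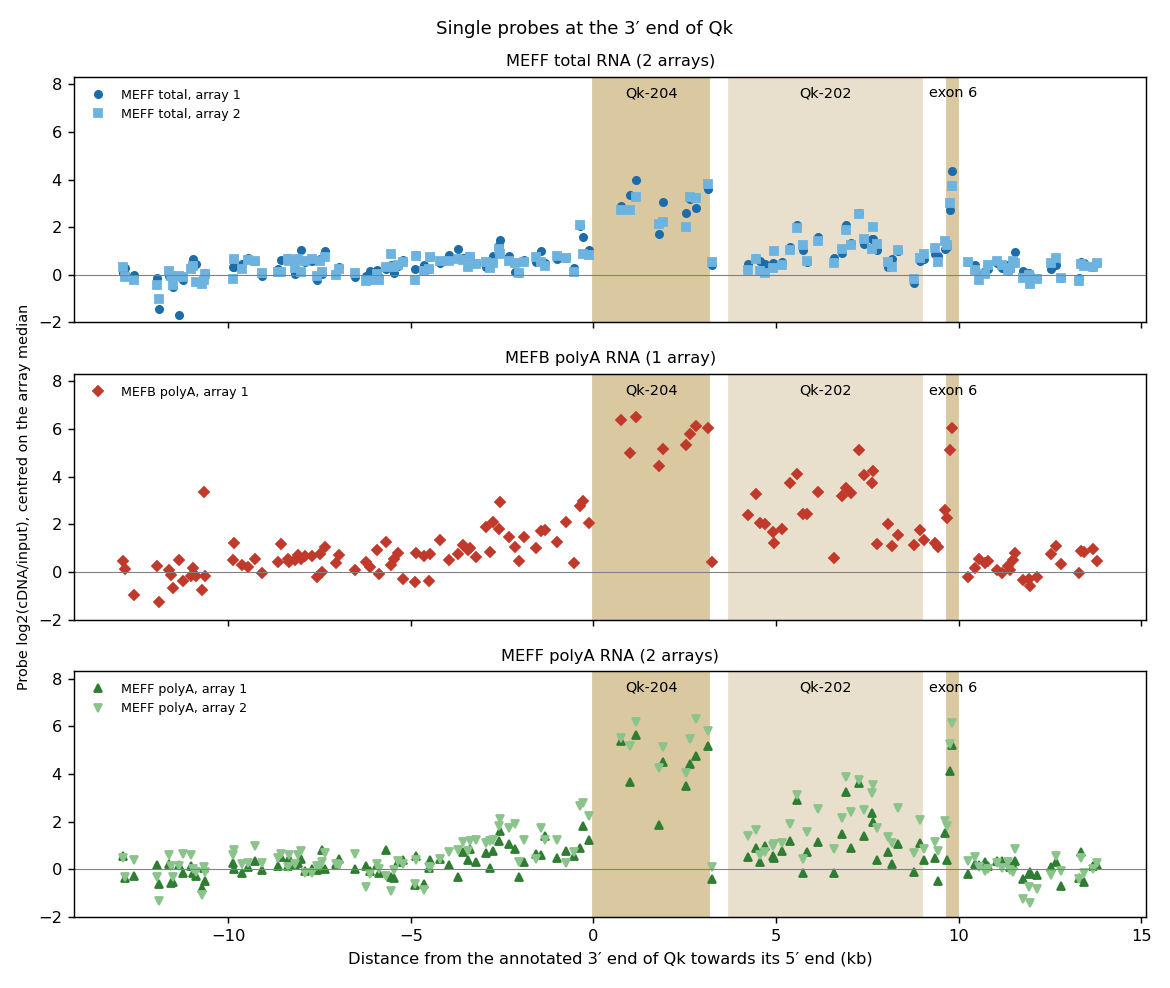
Log2(cDNA/input) of single probes (points, centred on each array's median) against the distance in kb from the annotated 3′ end of Qk, with MEFF total RNA at the top, MEFB polyA RNA in the middle and MEFF polyA RNA at the bottom. Shading marks the 3′ exons of Qk-204 and Qk-202 and exon 6, and the 9 probes of the Qk-204 exon reach 3.97 and 3.81 in MEFF total RNA, 6.52 in MEFB polyA RNA and 5.64 and 6.29 in MEFF polyA RNA.

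The plot of single probes shows the drop from the Qk-204 exon to the probe between the exons within 1 probe step. At the other side of that exon, signal continued beyond the annotated end of the gene. The 18 probes in the first 3 kb past it averaged 0.79 and 0.67 in MEFF total RNA, 1.67 in MEFB polyA RNA and 0.80 and 1.44 in MEFF polyA RNA. From 3 to 6 kb the level was 0.50 and 0.42 in MEFF total RNA, 0.59 in MEFB polyA RNA and 0.16 and 0.25 in MEFF polyA RNA, close to that of the introns in each group. From 9 to 12 kb it was -0.02 and 0.00, 0.18, and -0.13 and 0.10 in the same groups. Since no strand was kept, this signal cannot be assigned to Qk or to a transcript of the other strand.

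**Figure D3:**
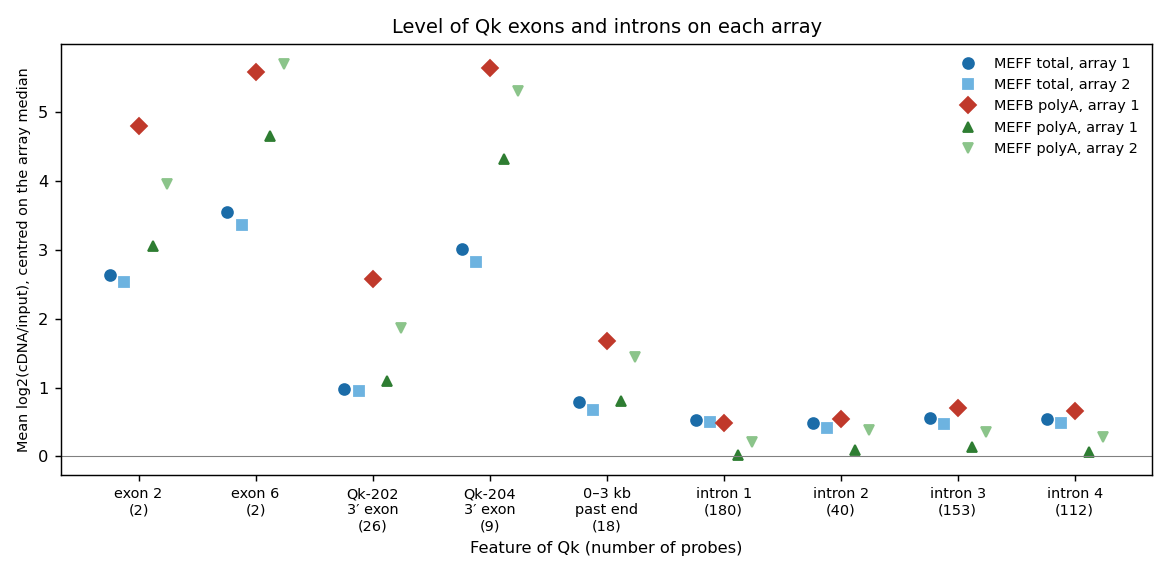
Mean log2(cDNA/input) of the probes of each Qk feature (vertical axis, centred on each array's median), with 1 point per array and the number of probes in brackets. Exons 2 and 6 and the Qk-204 exon lie between 2.54 and 5.70 on all arrays, and introns 1 to 4 between 0.02 and 0.70. Exon 2 here includes the probe at its edge.

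The introns of Qk were read in every group, and most weakly in MEFF polyA RNA, as the plot of features shows. Intron 1, with 180 probes, averaged 0.53 and 0.49 in MEFF total RNA, 0.48 in MEFB polyA RNA and 0.02 and 0.21 in MEFF polyA RNA. Intron 3, with 153 probes, averaged 0.55 and 0.48, 0.70, and 0.13 and 0.36 in the same groups. Intron 4, with 112 probes, averaged 0.55 and 0.49, 0.66, and 0.07 and 0.28. In all 3, both MEFF total arrays and the MEFB array were above both MEFF polyA arrays. The MEFB array lay just below both total RNA arrays in intron 1 and above both in introns 3 and 4.

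Averaged over groups, the intron stretch was 0.32 higher in MEFF total RNA (0.52 ± 0.04) than in MEFF polyA RNA (0.20 ± 0.15; SD, n = 2 each), and the pairs did not overlap. The exon-rich end had the opposite direction, 0.75 lower in MEFF total RNA (1.39 ± 0.07) than in MEFF polyA RNA (2.14 ± 0.56). This lower value at the exon-rich end did not hold under quantile normalization between arrays, which gave 0.067 higher in MEFF total RNA, whereas the intron difference kept its direction under all 10 alternatives (0.14 to 0.91). The input channel differed on 1 array. The median input of the stretch, relative to that of the whole array, was -0.22 and -0.20 on the MEFF total arrays, -0.22 on the MEFB array, and 0.04 and -0.24 on the MEFF polyA arrays. MEFF polyA array 1 thus had the highest input and the lowest intron level, and the part of that input in the level was not tested. On the cDNA channel alone, the intron difference was 0.14. Without MEFF polyA replicate 1 it was 0.21, and the difference at the exon-rich end was -1.15. Without replicate 2, the exon-rich end differed by -0.36.

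The 2 total RNA arrays and the polyA arrays came from different slide series, so an effect of the slides on this comparison cannot be told apart from one of the RNA. The arrays also differed in range: the brightest 1% of cDNA probes began 5.42 and 5.33 times above the median on the MEFF total arrays, 20.7 times on the MEFB array, and 9.17 and 22.4 times on the MEFF polyA arrays. The narrow range of the total RNA arrays moves with their low exon values, and its part in them was not tested. In such bulk RNA, fewer cells making a transcript and less of it per cell cannot be told apart.

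In MEFB polyA RNA, the level exceeded both MEFF polyA arrays at the exon-rich end and in the intron stretch. The exon-rich end was 0.96 higher (3.10 against 2.14 ± 0.56) and the intron stretch 0.44 higher (0.64 against 0.20 ± 0.15; SD, n = 2 MEFF polyA arrays, a single MEFB array). These directions held under all 8 alternatives, with 0.53 to 1.35 at the exon-rich end (0.57 without MEFF polyA replicate 1) and 0.24 to 0.54 in the intron stretch. The cDNA range of MEFF polyA array 1 (9.17 times the median) was narrower than that of the MEFB array (20.7) and of MEFF polyA array 2 (22.4). Its part in the MEFB differences was not tested. The features differed among themselves. MEFB was 1.10 higher at the Qk-202 exon (0.65 after quantile normalization, 0.71 without MEFF polyA replicate 1) and 0.83 higher at the Qk-204 exon. The Qk-204 value was 0.20 after normexp, 0.40 after quantile normalization, 0.34 without MEFF polyA replicate 1 and 1.32 without replicate 2. At exon 6 it was 0.41 higher on average but lay between the MEFF polyA arrays, and it was lower under normexp background correction (-0.12), quantile normalization (-0.018), loess (-0.087) and without MEFF polyA replicate 1 (-0.12).

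By 5 kb window, both MEFF total arrays exceeded both MEFF polyA arrays in 15 of the 19 windows of the intron stretch, against 14.2% of all 15383 windows of the chromosome. The MEFB array exceeded both MEFF polyA arrays in 19 of 19, against 34.7% of all windows, and both MEFF total arrays in 14 of 19, against 49.8%. These counts restate the contrast by which the stretch was chosen. In limma's fit of all 15383 windows to the intensities as deposited, 0 of 22 Qk windows passed an adjusted p of 0.05 between MEFF total and MEFF polyA RNA, with a background of 0.0%, and 12 had an unadjusted p under 0.05, as did 7.73% of all windows. After normexp background correction, 10 of 22 passed as higher in total RNA (0.689% of all windows) and 1 as lower (2.68%), at the low end. Between MEFB and MEFF polyA RNA, 0 of 22 passed as deposited (0.0065% of all windows passed, the 1 window being higher in MEFB), with 15 at an unadjusted p under 0.05 (15.7% of all windows), and 1 passed as higher after normexp (1.96% of all windows passed as higher and 1.21% as lower). All these calls rest on the values by which the stretch was chosen.

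**Figure D4:**
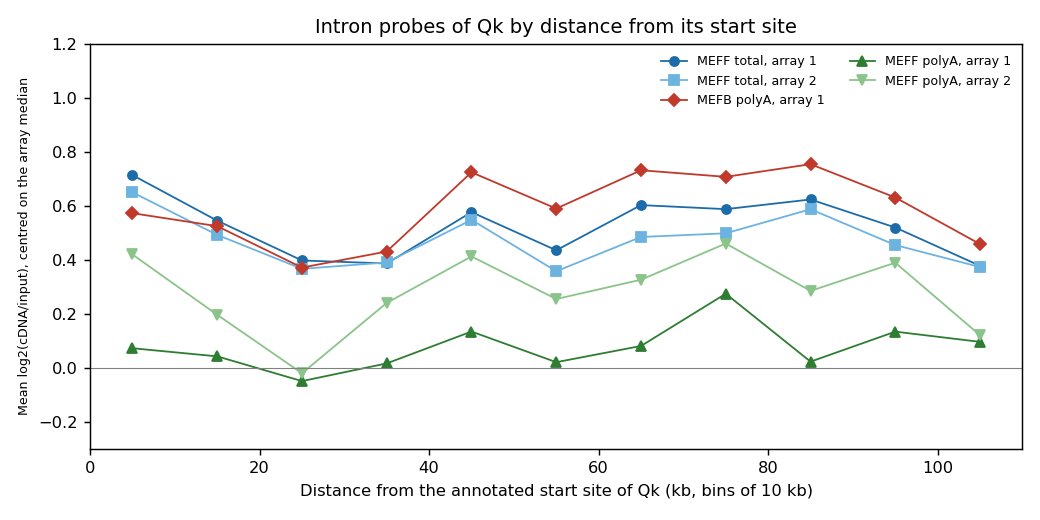
Mean log2(cDNA/input) of Qk intron probes (vertical axis, centred on each array's median) in bins of 10 kb by distance from the annotated start site, with 1 line per array. The bins lie between 0.36 and 0.71 on the MEFF total arrays, between 0.37 and 0.75 on the MEFB array, and between -0.05 and 0.46 on the MEFF polyA arrays.

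Along the gene, the intron level had no steady slope, as the plot by distance from the start site shows. Over 11 bins of 10 kb, MEFF total RNA was highest in the bin nearest the start site, at 0.71 and 0.65, and fell to 0.40 and 0.37 between 20 and 30 kb. MEFB polyA RNA was lowest in that same bin, at 0.37, and highest between 80 and 90 kb, at 0.75. In MEFF polyA RNA, the bin between 20 and 30 kb was also the lowest, at -0.05 and -0.02, and the bin between 70 and 80 kb the highest, at 0.27 and 0.46. All 5 arrays thus read less between 20 and 30 kb than in the first 10 kb or between 40 and 50 kb, and MEFB had its highest levels in the downstream part of the gene. The SD over bins was 0.11 and 0.10 in MEFF total RNA, 0.13 in MEFB polyA RNA and 0.09 and 0.14 in MEFF polyA RNA.

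Among the genes of the chromosome, the rank of Qk varied more between groups by its introns than by its exons. Genes of the placed blocks with at least 5 exon probes numbered 498. The mean of all 46 Qk exon probes was 1.42 and 1.39 in MEFF total RNA, 3.08 in MEFB polyA RNA and 1.84 and 2.58 in MEFF polyA RNA. It exceeded 84.3% and 82.9% of those genes on the MEFF total arrays, 82.5% on the MEFB array, and 73.1% and 66.5% on the MEFF polyA arrays. Its difference between MEFF total and MEFF polyA RNA, -0.81, was to 2 decimals the median of all 498 genes. Between MEFB and MEFF polyA RNA its difference was 0.87, with a median of 0.01 over all genes. These ranks and differences include the 6 probes of exon 1, whose placing is weak. They were not computed without those probes. Leaving exon 1 out of the exon minus intron value moved MEFF total minus MEFF polyA RNA from -1.13 to -1.21. It moved MEFB minus MEFF polyA RNA from 0.45 to 0.65.

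The introns ranked otherwise. The mean of 497 Qk intron probes was 0.54 and 0.48 in MEFF total RNA, 0.60 in MEFB polyA RNA and 0.08 and 0.29 in MEFF polyA RNA. Of 355 genes with at least 20 intron probes, Qk exceeded 88.5% and 86.8% on the MEFF total arrays, 71.0% on the MEFB array, and 49.0% and 52.4% on the MEFF polyA arrays. Qk introns were thus high in rank in MEFF total RNA and at the middle in MEFF polyA RNA.

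**Figure D5:**
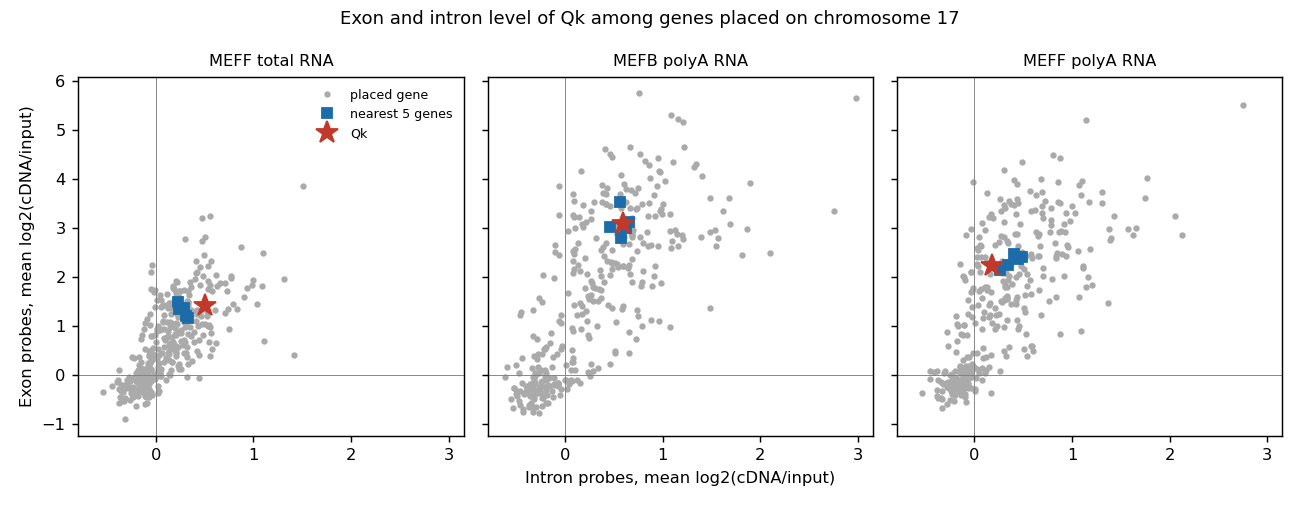
Mean log2(cDNA/input) of exon probes (vertical axis) against that of intron probes (horizontal axis) for 355 placed genes, in MEFF total RNA, MEFB polyA RNA and MEFF polyA RNA from left to right. The star is Qk, with exon and intron means of 1.40 and 0.51, 3.08 and 0.60, and 2.21 and 0.18 in the 3 panels, and the squares are the 5 genes nearest to it over all arrays.

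The 5 genes nearest to Qk, by Euclidean distance over 10 values (exon and intron level on 5 arrays), were Sos1, a Ras exchange factor, Prkd3, a protein kinase D, Ndufv2, a subunit of respiratory complex I, Yipf4, a Golgi membrane protein, and the zinc finger gene Zfp52. Their distances ran from 0.46 for Sos1 to 0.67 for Zfp52. The exon levels of Qk used for them include the weakly placed exon 1 probes. Sos1 had exon levels of 1.26 and 1.15 in MEFF total RNA, 3.02 in MEFB polyA RNA and 1.79 and 2.47 in MEFF polyA RNA, each below Qk. Its intron levels were 0.34 and 0.29 in MEFF total RNA, 0.46 in MEFB polyA RNA and 0.16 and 0.36 in MEFF polyA RNA. As in the plot of exon against intron levels, all 5 genes had lower intron levels than Qk on both MEFF total arrays and higher ones on both MEFF polyA arrays.

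The wider setting was read from lists chosen with results of these arrays known. Of 15 chromosome 17 genes for splicing factors and other RNA-binding proteins, 8 were placed with enough exon probes. Between MEFF total and MEFF polyA RNA, 0 of 8 passed as deposited (0.0% of the 498 genes, 209 with an unadjusted p under 0.05), and 7 of 8 passed as lower in total RNA after normexp (49.6% of the 498 genes). Their median difference was -1.50 as deposited, with -0.81 over all genes. The splicing coactivator Srrm2 had 3.85 and 3.84 in MEFF total RNA, 5.65 in MEFB polyA RNA and 4.68 and 6.33 in MEFF polyA RNA, and Safb, a scaffold attachment factor, had 1.68 and 1.77, 3.37, and 3.02 and 4.42. Between MEFB and MEFF polyA RNA, 0 of 8 passed as deposited, or after normexp (3.61% of genes higher and 3.01% lower). Of these 8, the MEFB array lay above both MEFF polyA arrays at Snrpc alone, a subunit of the U1 particle, at 0.87 against 0.54 and 0.63, and 27.1% of the 498 genes had that order.

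Of 22 other genes listed for the Thp interval, 9 were placed with enough exon probes, 1 of them (Map3k4) under 2 gene identifiers. Between MEFF total and MEFF polyA RNA, 0 of these 10 identifiers passed as deposited and 5 passed as lower in total RNA after normexp, against 49.6% of all genes. Igf2r, the imprinted receptor gene that gives its name to the cluster, had 0.98 and 0.89 in MEFF total RNA, 4.61 in MEFB polyA RNA and 1.61 and 2.43 in MEFF polyA RNA. After normexp, Igf2r alone of the 10 identifiers passed between MEFB and MEFF polyA RNA, where 3.61% of the 498 genes passed as higher and 3.01% as lower. Its MEFB minus MEFF polyA difference of 2.59 (SE 0.42) had an adjusted p of 0.16 in limma's fit of the intensities as deposited. Pde10a, a phosphodiesterase gene, and Agpat4, an acyltransferase gene, had MEFB minus MEFF polyA differences of -0.08 (SE 0.40, adjusted p = 0.99) and -0.35 (SE 0.39, adjusted p = 0.86) in the same fit.

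Of the markers that could be placed, those of fibroblasts had signal and that of hepatocytes did not. Crim1 had 1.36 and 1.35 in MEFF total RNA, 4.50 in MEFB polyA RNA and 2.26 and 3.36 in MEFF polyA RNA. Cyp1b1 had 0.78 and 0.77 in MEFF total RNA, 5.10 in MEFB polyA RNA and 1.50 and 2.55 in MEFF polyA RNA. Plg, the liver gene for plasminogen, was between -0.57 and -0.26 on all 5 arrays. Of these 3 markers, 0 passed as deposited in either comparison. After normexp, Crim1 and Cyp1b1 passed as lower in MEFF total than in MEFF polyA RNA, as did 49.6% of the 498 genes. With the same correction, MEFB minus MEFF polyA RNA was 1.43 for Crim1, 2.95 for Cyp1b1 and -0.08 for Plg. Of these, Cyp1b1 alone passed, as higher on the single MEFB array, as did 3.61% of the 498 genes. Both fibroblast markers were thus higher in MEFB than on either MEFF polyA array, in the same direction as Qk, and their part in the Qk difference was not tested. The other 5 of the 8 markers were not placed with enough probes.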

How the data were processed

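Per the labels, total or polyA RNA was made into double-stranded cDNA and labelled by the array maker. The authors deposited unprocessed probe intensity for both channels. Per the file headers, the software was NimbleScan 2.2.34. The median cDNA intensity ran from 568.8 to 2561, so the arrays were not scaled to a common median. Whether background had been subtracted was not tested. The array holds 388000 probes with a median spacing of 139 bp. From these, log2(cDNA/input) was computed, with the median of each array set to 0. Levels were averaged over probes of windows, exons (at least 25 of 50 bases in an exon of GENCODE vM1) or introns. Windows of 5 kb with at least 8 probes, and genes with at least 5 exon probes, were fitted with limma 3.58.1 in R 4.3.3 (lmFit, eBayes, 3 group means, 5 arrays), with Benjamini-Hochberg adjustment over all windows or genes and a threshold of 0.05. On simulated data the fit recovered its planted shifts, with the noise of all arrays set to the median SD of the MEFF total pair. In the intron stretch, the SD was 0.04 for that pair and 0.15 for the MEFF polyA pair. The simulation therefore does not show what the fit recovers at the spread of the MEFF polyA pair. The residual spread of the fit comes from 2 pairs of arrays, and the variance of the single MEFB array is taken to equal theirs. The number of arrays limits the precision.

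Probe positions were placed on NCBIM37 in blocks of 10 kb (with 30 kb read around each), by correlating mean log2 input with input predicted from base composition. A block was accepted at a z of at least 4.5, or 3.5 beside an accepted block. This placed 242804 of 387986 probes (62.6%), with a correlation of 0.531, against 0.014 with the file positions taken as NCBIM37. Python 3.11.15 with numpy 2.4.6, pandas 2.3.3 and scipy 1.17.1 was used. The Qk stretch, the lists and the comparisons were chosen with earlier results of these data known. Named genes are Qk, at most 4 placed genes per list, counting from the highest mean exon level, and the 5 genes nearest to Qk. Srrm2, Safb, Igf2r, Agpat4 and Pde10a are among these 4 per list, and Snrpc was named after its values were seen. The labels do not say that replicates are separate cultures, and p-values then cover array-to-array spread that may be technical. Alternatives were normexp background correction (offset 50), quantile and loess (span 0.3) normalization, the cDNA channel alone, the median of probes, leaving out the 10% of probes with the least input, other window sizes, a trended prior, only the groups compared, exons moved by 200 bp, and each replicate left out.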

Additional observations from a re-analysis of the deposited data

How the results depend on the processing

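No paired analysis was possible because the labels give no replicate numbers that tie arrays of different groups to each other, and MEFB has 1 array.

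Settings that moved a value by more than the SD between replicates (for MEFB, that of the MEFF polyA pair) were as follows. The exon-rich end minus the intron stretch, 0.87 in MEFF total RNA, was 1.43 after normexp, 1.28 after quantile normalization, 0.94 after loess, 0.74 on the cDNA channel alone, 0.51 by the median of probes, 1.07 without low-input probes and 0.51 with the second window alone as the exon-rich end. It was 0.85 and 0.89 with a replicate left out. In MEFB polyA RNA (2.47) it was 3.13 after normexp, 1.96 after quantile normalization and 2.04 with the second window alone. In MEFF polyA RNA (1.94) it was 2.94 after normexp, 1.39 by the median, 2.37 without low-input probes and 1.33 with the second window alone, and 1.66 to 2.23 with a replicate left out.

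The Qk exon minus intron probes, 0.89 in MEFF total RNA, were 1.33 after normexp, 1.29 after quantile normalization, 0.93 after loess, 0.85 on the cDNA channel alone, 0.52 by the median, 1.08 without low-input probes, 0.63 and 0.68 with exons moved by 200 bp down and up, and 1.11 without exon 1, a setting chosen after seeing the data. In MEFB polyA RNA (2.48) they were 3.05 after normexp, 1.99 after quantile normalization, 2.10 after loess, 1.98 with exons moved down and 2.97 without exon 1. In MEFF polyA RNA (2.03) they were 2.99 after normexp, 1.62 after loess, 1.25 by the median, 2.45 without low-input probes and 1.58 with exons moved down.

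Between groups, the sign of MEFF total minus MEFF polyA RNA turned after quantile normalization at the exon-rich end (0.067), exon 2 (0.092), exon 6 (0.0086, and 0.35 after loess) and the Qk-202 exon (0.084), and after loess at exon 2 (0.010). MEFB minus MEFF polyA RNA turned at exon 6 after normexp (-0.12), quantile normalization (-0.018) and loess (-0.087) and without MEFF polyA replicate 1 (-0.12). The intron differences of the stretch and of introns 1, 3 and 4 kept their sign under all alternatives run.

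As deposited, 0 Qk windows and 0 list genes passed in either comparison. For MEFF total against MEFF polyA RNA, 11 Qk windows passed after normexp (3.37% of all windows did) and 16 after quantile normalization (6.04%). With a replicate left out, 0 to 19 passed, with 13 without MEFF polyA replicate 1 (29.2% of all windows) and 19 without replicate 2 (20.8%). For MEFB against MEFF polyA RNA, 1 passed after normexp (3.17%), 5 after quantile normalization (6.81%) and 0 to 22 with a replicate left out, with 19 without MEFF polyA replicate 1 (45.4%) and 22 without replicate 2 (44.8%). Of 18 placed identifiers in the RNA-binding and Thp lists, 12 passed for MEFF total against MEFF polyA RNA after normexp (49.6% of all genes), 12 after quantile normalization (50.8%), 4 after loess (25.1%) and 1 with a trended prior (10.2%). With a replicate left out, 0 to 15 passed, where 73.9% of all genes did without MEFF polyA replicate 1 and 67.3% without replicate 2. For MEFB against MEFF polyA RNA, 1 passed after normexp (6.63%), 3 after quantile normalization (26.3%) and 0 to 15 with a replicate left out (69.1% and 73.9% of all genes without MEFF polyA replicate 1 and 2). Leaving out 1 of the MEFF polyA pair leaves a spread set by the MEFF total pair alone. Array number and, in exons 2, 4 and 6, 1 or 2 probes each limit these values.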

Other observations

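The probes that straddle the edges of exons 2 and 4 read higher in MEFB than in MEFF. The probe with 34 of its 50 bases in exon 2 read 0.97 and 0.67 in MEFF total RNA, 3.32 in MEFB polyA RNA and 0.70 and 1.41 in MEFF polyA RNA. The probe with 32 of its 50 bases in exon 4 read 0.95 and 2.00 in MEFF total RNA, 4.26 in MEFB polyA RNA and 0.97 and 0.88 in MEFF polyA RNA. At both, the MEFB array stood above all 4 MEFF arrays, which it did at none of the 3 probes placed wholly in exons 2 and 6. A higher MEFB value is not particular to edge probes. It exceeded both MEFF polyA values at 21 of 26 probes of the Qk-202 3′ exon and 7 of 9 of the Qk-204 3′ exon, against 35.6% of all probes of the chromosome. These are single probes on a single MEFB array, chosen after their values were seen.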
